A study of Mus musculus with 28 samples.

Results

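The clustered protocadherins are cell-surface adhesion proteins of the cadherin superfamily. Their genes stand in 3 tandem arrays on mouse chromosome 18, called alpha, beta and gamma. All genes of the table whose symbol has the form Pcdha, Pcdhac, Pcdhb, Pcdhga, Pcdhgb or Pcdhgc with a number were taken, which gave 58 of 24062 genes: 14 alpha, 22 beta and 22 gamma. All 58 passed the low count filter, among 16369 genes tested. On the mm10 build, per RefSeq, the alpha genes lie from 36930285 to 37188897, the beta genes from 37264998 to 37521419 and the gamma genes from 37661775 to 37841873, all on the plus strand.

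As background, each alpha and gamma gene has its own large variable exon, which encodes the extracellular cadherin repeats, the membrane span and part of the cytoplasmic tail. That exon is spliced to constant exons shared by all genes of the array. Beta genes have a single coding exon and no constant exons. A neuron switches on a small, largely random set of the variable promoters, with the insulator protein CTCF and cohesin looping promoters to distant enhancers, and the proteins bind copies of themselves on other membranes. The resulting surface code lets branches of a neuron recognise and avoid each other. The C-type genes Pcdhac1, Pcdhac2, Pcdhgc3, Pcdhgc4 and Pcdhgc5 at the array ends are chosen less randomly.

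RNA came from the hippocampus of female mice and was sequenced in bulk with a stranded mRNA kit, in 7 groups of 4 libraries. The 3xTg groups received NAVI (navitoclax, also called ABT263, which blocks survival proteins of the BCL-2 family), its vehicle VehN, DQ (dasatinib with quercetin) or its vehicle VehD. The WT groups, labelled BL6129 or BL6/129, received NAVI, DQ or a vehicle labelled Veh. The drugs are used to remove senescent cells, and the study asked how such treatment changes the 3xTg-AD mouse, a model of Alzheimer's disease. As background, all 3xTg-AD mice carry human APP and tau transgenes driven by the Thy1 promoter, which is active in neurons, and WT mice carry neither. The sources used here do not give age, dose, schedule, batch or vehicle composition, and the final letter of a vehicle's label tied it to its drug. The single WT vehicle group served both drugs. The WT label names a mixed BL6/129 background and the 3xTg labels name none, so a difference in strain background cannot be told apart from the genotype. Whether WT mice differ from each other in background at the arrays on chromosome 18 was not tested. The labels do not say that each library is a separate animal, so p-values measure the spread between these libraries.

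Libraries held 32080861 to 54019519 counts, of which 23444 to 38025 fell on the 58 genes. App counts ran from 2410 to 3805 CPM (counts scaled to a common library size with TMM factors) in the 16 3xTg libraries, against 1470 to 1800 CPM in the 12 WT libraries, so the genotypes did not overlap. Markers of hippocampal neurons were present in all libraries, with 36.2 to 75.1 CPM of Prox1, a dentate granule cell factor, and 72.8 to 176 CPM of Wfs1, a CA1 marker. Marker scores of neighbouring tissue varied widely between libraries, from -2.75 to 2.34 for choroid plexus and from -0.70 to 1.88 for thalamus (mean over the markers of log2 CPM, centred on all 28 libraries). In bulk RNA, fewer cells of a type and less RNA per cell cannot be told apart.

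The arrays differed in level, and a C-type gene had the highest level in 2 of them. Per kilobase of exon not shared with another gene, the median gene had 1.17 CPM in alpha, 2.17 CPM in beta and 4.11 CPM in gamma, as means over the 28 libraries. In alpha the range ran from 0.273 CPM per kilobase for Pcdha8 to 12.1 for Pcdhac2, and in gamma from 1.52 for Pcdhgb4 to 25.7 for Pcdhgc5. In beta it ran from 0.633 for Pcdhb1 to 9.999 for Pcdhb9. Pcdha10 had no matching gene model, so it has no length, GC content or window share. The 5 C-type genes together held 30.4% ± 2.06 (SD, n = 16) of the clustered protocadherin CPM in 3xTg libraries and 31.1% ± 2.07 (SD, n = 12) in WT libraries.

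The sources used here do not say how reads matching several genes were counted, and this matters more for some arrays than for others. Of the windows of 100 bases along a gene's longest transcript, 47.7% to 96.5% occur in another gene for the alpha genes and 17.4% to 64.0% for the gamma genes, against 0% to 7.73% for the beta genes. The levels of alpha and gamma genes are therefore uncertain, most of all that of Pcdha4, with 96.5% of its windows shared and 2 to 14 counts per library.

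Between genotypes, single genes moved in both directions. Over all libraries, the mean sum was higher in 3xTg for beta and gamma and lower for alpha. Only for beta was the direction the same with NAVI, DQ and vehicle. The beta genes summed to 242 ± 11.5 CPM in 3xTg libraries and 221 ± 16.2 CPM in WT libraries. The gamma genes summed to 429 ± 27.1 CPM in 3xTg and 408 ± 17.1 CPM in WT, and the alpha genes to 72.6 ± 5.17 CPM in 3xTg and 74.4 ± 2.98 CPM in WT (SD, n = 16 and n = 12). By group, the gamma mean was 404 CPM in VehN and 417 CPM in VehD, against 418 CPM in WT Veh. With NAVI it was 460 CPM in 3xTg against 401 CPM in WT, and with DQ 435 against 404 CPM. The alpha mean was 67.7 CPM in VehN and 71.8 CPM in VehD, against 75.2 CPM in WT Veh. With NAVI it was 75.2 CPM in 3xTg against 72.2 CPM in WT, and with DQ 75.7 against 75.9 CPM. The ranges of the 3xTg and WT libraries overlapped for each array's sum, and the sums were not tested. The heat map of all members by library shows which genes lie behind these sums.

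**Figure D1:**
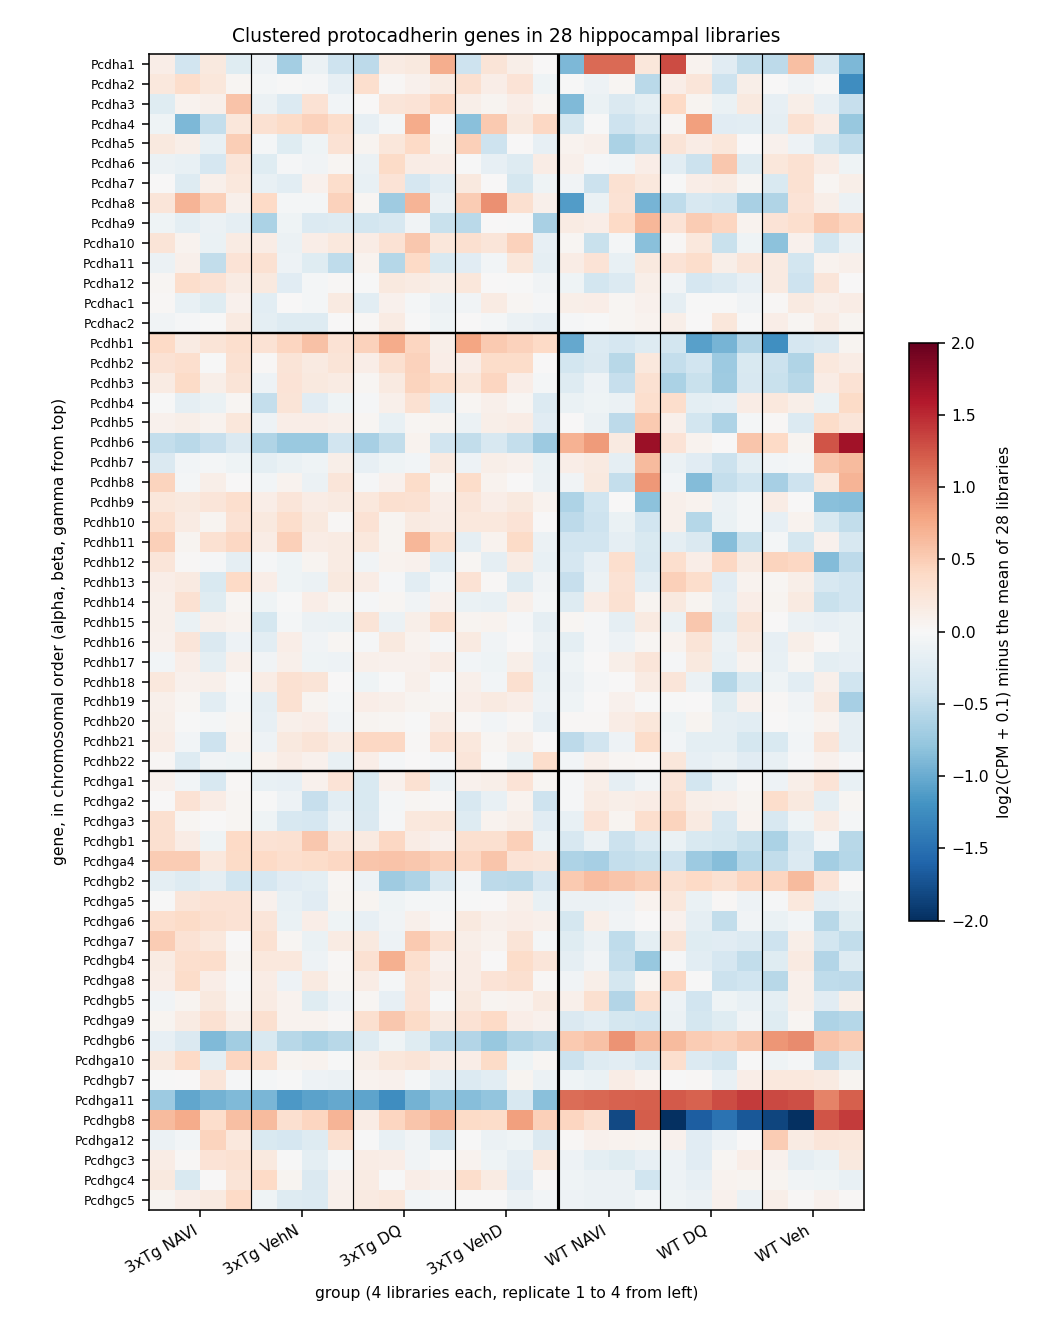
Level of each of the 58 genes in each of the 28 libraries, as log2(CPM + 0.1) minus the gene's mean over all libraries (colour, limited to 2 in either direction); rows follow chromosomal order with lines between arrays, and columns are libraries by group with the thick line between 3xTg and WT. Pcdhga11, Pcdhgb6, Pcdhb6, Pcdha9 and Pcdhgb2 are low and Pcdhga4 and Pcdhb1 high in the 3xTg libraries, and Pcdhgb8 splits the WT libraries.

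The genotypes were compared in 3 arms that share no library: 3xTg NAVI against WT NAVI, 3xTg DQ against WT DQ, and the mean of VehN and VehD against WT Veh. In the mean of the arms, 22 of 58 members passed an adjusted p of 0.05 (edgeR's quasi-likelihood test, Benjamini-Hochberg over all 16369 genes). Of these, 17 were higher in 3xTg, or 29.3% of members, against 7.37% of all genes tested. The other 5 were lower in 3xTg, or 8.62% of members, against 7.06% of all genes. Over all 58 members the median log2 difference was 0.09, beside -0.0014 over all genes. By array, 3 alpha genes rose and 1 fell, 6 beta genes rose and 1 fell, and 8 gamma genes rose and 3 fell.

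The largest fall was that of Pcdhga11, a gamma gene at 37755773 to 37841873. It had 6.31, 5.08, 5.41 and 5.63 CPM in the 3xTg NAVI libraries, against 23.0, 23.3, 23.9 and 24.2 CPM in the WT NAVI libraries. It had 5.005, 4.39, 5.38 and 6.11 CPM in the 3xTg DQ libraries, against 24.6, 23.8, 26.0 and 27.7 CPM in the WT DQ libraries. With vehicle it had 5.53, 4.70, 4.95 and 5.10 CPM in VehN and 5.802, 6.06, 8.42 and 5.85 CPM in VehD, against 26.3, 25.7, 20.9 and 24.3 CPM in WT Veh. Every 3xTg library lay below every WT library, in each arm and with either drug. The mean of the arms was 4.43-fold lower in 3xTg, with a log2 fold change of -2.15 (SE 0.0620, edgeR adjusted p = 1.95e-18), the smallest adjusted p of all 16369 genes. About 43.5% of its windows occur in other genes, through the constant exons.

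Pcdhgb6 and Pcdha9 were also separated by genotype in every library. Pcdhgb6 ran from 4.16 to 7.30 CPM in 3xTg libraries (median 5.28), against 10.7 to 14.9 CPM in WT libraries (median 11.6). Its log2 difference was -1.09 (SE 0.0743, edgeR adjusted p = 6.41e-11). Pcdha9 ran from 1.92 to 3.09 CPM in 3xTg (median 2.62), against 3.22 to 4.93 CPM in WT (median 4.02), and its log2 fold change was -0.62 (SE 0.0859, edgeR adjusted p = 1.30e-05). Pcdhgb2 and Pcdhb6 were lower too, with some overlap. Pcdhgb2 ran from 3.53 to 6.03 CPM in 3xTg (median 4.76), against 5.82 to 9.07 CPM in WT (median 7.89), and fell by 0.74 on the log2 scale (edgeR adjusted p = 8.95e-08). Pcdhb6, which shares only 2.31% of its windows, ran from 2.83 to 5.06 CPM in 3xTg (median 3.41), against 4.82 to 15.9 CPM in WT (median 6.76). It fell by 1.198 (edgeR adjusted p = 5.94e-06), and by 0.82 without 3 WT libraries described below. With DQ alone it was not called (log2 -0.60).

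Pcdhga4 and Pcdhb1 led the rises, and neither overlapped between the genotypes. Pcdhga4 ran from 23.1 to 29.8 CPM in 3xTg libraries (median 26.7), against 11.03 to 16.5 CPM in WT libraries (median 13.4). Its log2 difference was 1.01 (SE 0.0531, edgeR adjusted p = 4.03e-13), although 64.0% of its windows occur in other genes. Pcdhb1, at the start of the beta array (37264998 to 37267454) with none of its windows shared, ran from 1.67 to 2.71 CPM in 3xTg (median 2.07), against 0.591 to 1.59 CPM in WT (median 1.17). It rose by 0.98 (SE 0.126, edgeR adjusted p = 4.48e-06). In all, 5 members (8.62%) had no overlap between the 16 3xTg and the 12 WT libraries, against 0.593% of all genes tested.

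The other rises were smaller and their libraries overlapped. In the gamma array Pcdhgb1 rose by 0.57, Pcdhgb4 by 0.53, Pcdhga9 by 0.51, Pcdhga7 by 0.41, Pcdhga10 by 0.37, Pcdhga8 by 0.30 and Pcdhga6 by 0.28 (log2, edgeR adjusted p between 3.83e-06 for Pcdhga9 and 0.0239 for Pcdhga8). In the beta array Pcdhb11 rose by 0.57, Pcdhb2 by 0.51, Pcdhb3 and Pcdhb9 by 0.46 each and Pcdhb10 by 0.43 (edgeR adjusted p between 3.25e-05 for Pcdhb11 and 0.00103 for Pcdhb3). In the alpha array Pcdha8 rose by 0.63, Pcdha10 by 0.40 and Pcdha12 by 0.23. The edgeR adjusted p of these alpha genes was 0.0222, 0.0108 and 0.0294. Pcdha8, with 11 to 59 counts per library, lost its call without 3xTg DQ replicate 3 (adjusted p = 0.0558), and Pcdhga8 lost its call without WT DQ replicate 3 (adjusted p = 0.0507). Pcdha12 lost its call without any one of 9 libraries, namely replicate 2 of WT Veh (adjusted p = 0.0551) or replicates 2 and 3 of 3xTg NAVI, 3xTg DQ, WT NAVI and WT DQ (adjusted p = 0.0559 to 0.0693).

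**Figure D2:**
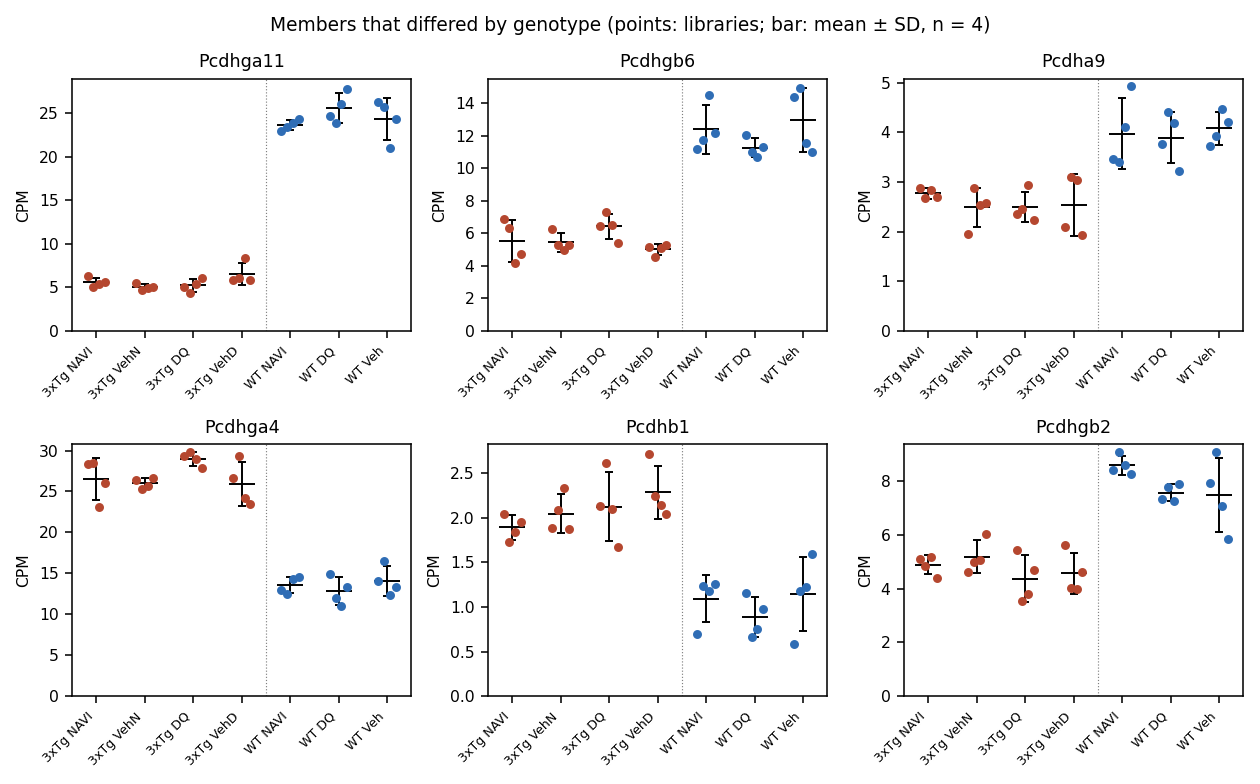
CPM by group for the 5 members that did not overlap between genotypes and for Pcdhgb2; points are libraries (red 3xTg, blue WT), and bars are the mean ± SD of 4 libraries. Pcdhga11 sits between 4.39 and 8.42 CPM in 3xTg and between 20.9 and 27.7 CPM in WT, while Pcdhga4 and Pcdhb1 are higher in 3xTg.

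Members were called in both directions in each arm. With NAVI, 13 members were higher in 3xTg, or 22.4%, against 3.29% of all genes, and 5 were lower, or 8.62%, against 2.69%. With DQ, 9 members were higher, or 15.5%, against 1.68% of all genes, and 4 were lower, or 6.90%, against 1.37%. With vehicle, 8 members were higher, or 13.8%, against 5.68% of all genes, and 9 were lower, or 15.5%, against 7.4%. The same direction was called in each of the 3 arms for 8 members, or 13.8%, against 0.959% of all genes. These were Pcdhb1, Pcdhgb1, Pcdhga4 and Pcdhga9, higher in 3xTg, and Pcdha9, Pcdhgb2, Pcdhgb6 and Pcdhga11, lower in 3xTg. Single libraries moved the totals of 18 with NAVI, 13 with DQ and 17 with vehicle, beside 979, 500 and 2142 of all genes. With NAVI, leaving out replicate 3 or 4 of 3xTg NAVI gave 10 or 11 members, beside 375 or 592 of all genes. Leaving out replicate 3 or 4 of WT NAVI gave 8 or 9 members, beside 447 or 579 of all genes. With DQ, 8 were called without WT DQ replicate 3, beside 268 of all genes. With vehicle, 11 were called without WT Veh replicate 1 or 3, beside 967 or 1450 of all genes.

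The log2 differences of these 8 genes are given for each arm, and differences between arms are not tested here. Pcdhga11 differed by -2.07 with NAVI, -2.29 with DQ and -2.08 with vehicle, and Pcdhgb6 by -1.16, -0.81 and -1.31 in the same order. Pcdhgb2 differed by -0.81, -0.79 and -0.62, and Pcdha9 by -0.52, -0.64 and -0.70. Pcdhga4 differed by 0.96 with NAVI, 1.17 with DQ and 0.88 with vehicle, and Pcdhb1 by 0.79, 1.249 and 0.92. Pcdhgb1 differed by 0.49, 0.53 and 0.68, and Pcdhga9 by 0.47, 0.56 and 0.51. The calls of Pcdhga11, Pcdhgb6, Pcdhgb2 and Pcdhga4 held in each arm without any single library.

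The other 4 were less firm in single arms. With NAVI, leaving out single libraries ended the calls of Pcdhb1 (any WT NAVI replicate, or 3xTg NAVI replicate 1, 3 or 4, with adjusted p = 0.0525 to 0.0962) and Pcdha9 (any 3xTg NAVI replicate, or WT NAVI replicate 3 or 4, with adjusted p = 0.0579 to 0.146). It also ended those of Pcdhgb1 (3xTg NAVI replicate 1 or 4, or WT NAVI replicate 1, 3 or 4, with adjusted p = 0.0572 to 0.108) and Pcdhga9 (3xTg NAVI replicate 3, or WT NAVI replicate 3 or 4, with adjusted p = 0.0541 to 0.0794). With DQ it ended those of Pcdha9 (3xTg DQ replicate 1, 2 or 4, or WT DQ replicate 2 or 3, with adjusted p = 0.0540 to 0.0859) and Pcdhgb1 (3xTg DQ replicate 1, 2 or 3, or WT DQ replicate 3 or 4, with adjusted p = 0.0555 to 0.121). In the mean of the arms, all 4 passed without any single library.

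**Figure D3:**
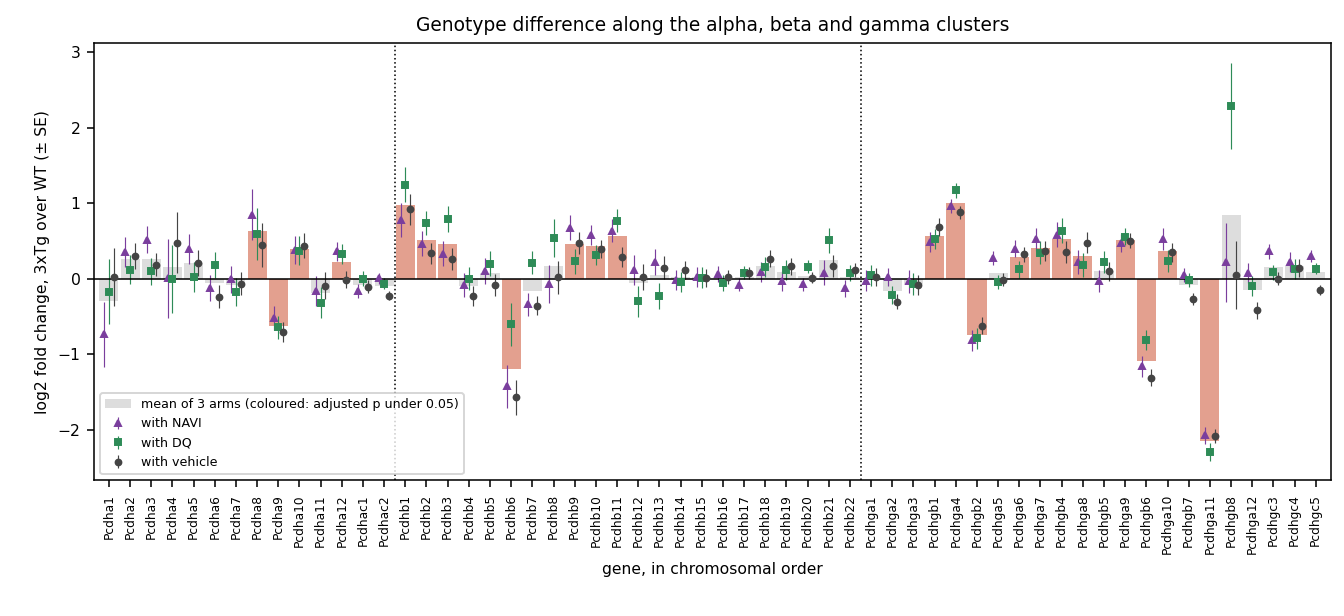
Log2 fold change of 3xTg over WT for each gene in chromosomal order (dotted lines between the arrays); points with SE are the NAVI, DQ and vehicle arms, and bars are the mean of the arms, coloured where the edgeR adjusted p is under 0.05. Pcdhga11 reaches about -2.15 beside Pcdhgb7 near 0, and Pcdhgb8 is spread widely between the arms.

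Neighbouring genes moved both together and apart. Of 55 pairs of neighbouring genes within an array, both members passed in 13, with the same direction in 8 pairs and opposite directions in 5. In 17 pairs 1 gene passed and in 25 pairs none. The pairs with 1 direction were all rises and formed the runs Pcdhb1 to Pcdhb3, Pcdhb9 to Pcdhb11, Pcdhgb1 with Pcdhga4, and Pcdhga6, Pcdhga7, Pcdhgb4 and Pcdhga8. Pcdha9 fell between Pcdha8 and Pcdha10, which rose, and Pcdhgb6 fell between Pcdhga9 and Pcdhga10, which rose. Pcdhga4 rose beside Pcdhgb2, which fell. Pcdhga11 stands between Pcdhgb7 and Pcdhgb8, and neither of these passed in the mean of the arms.

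None of the 5 C-type genes passed in the mean of the arms with edgeR. Their log2 differences ran from -0.09 for Pcdhac2 to 0.17 for Pcdhgc4. An unadjusted p under 0.05 was reached by 4 of the 5, beside 4311 of 16369 genes. The smallest adjusted p among the C-type genes was 0.0583, for Pcdhgc3 (log2 difference 0.15, 95% interval 0.05 to 0.26). Pcdhgc3 passed as a rise in 9 of 39 alternatives, among them DESeq2 (adjusted p = 0.0444), limma-voom (0.0319), the replicate block (0.0238) and leaving out 3xTg VehN replicate 3, 3xTg VehD replicate 3, 3xTg NAVI replicate 2, WT Veh replicate 4 or WT DQ replicate 4 (0.0269 to 0.0444). Pcdhac2 passed as a fall with limma-voom (0.0239) and without VehN replicate 4 (0.0481). In single arms, Pcdhgc3 and Pcdhgc5 were higher in 3xTg with NAVI (log2 0.36 and 0.30, edgeR adjusted p = 0.0261 and 0.0213), and Pcdhac2, known for its role in the spacing of serotonergic axons, was lower with vehicle (log2 -0.22, adjusted p = 0.0169). The Pcdhgc3 call was lost without 3xTg NAVI replicate 3 or 4 or WT NAVI replicate 2, 3 or 4 (adjusted p = 0.0569 to 0.102). That of Pcdhgc5 was lost without 3xTg NAVI replicate 3 or 4 or WT NAVI replicate 2 or 3 (0.0532 to 0.107), and that of Pcdhac2 without WT Veh replicate 1 or 3 (0.0578 and 0.0616). Under removal of each library's GC trend, Pcdhgc3, Pcdhgc4 and Pcdhgc5 passed as rises in 3xTg in the mean of the arms (edgeR adjusted p = 2.77e-05, 0.0230 and 0.0296), while the call of Pcdhgc5 with NAVI was lost (log2 0.19, adjusted p = 0.0938). The gamma genes have a GC content of 51.0% to 55.4%, higher than the 39.1% to 49.0% of the beta genes.

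For most members the WT libraries of a group differed among themselves more than the 3xTg libraries did. The SD of log2 CPM within groups was larger in WT than in 3xTg for 39 of 58 members (67.2%), against 47.8% of all genes tested. It was more than 2 times as large for 12 members (20.7%), against 3.21% of all genes. The SD was more than 2 times as large in 3xTg for 2 members, Pcdhac1 and Pcdhgc5, and for 309 of all genes. Pcdhgb8 had the widest gap, with a within-group SD of 0.194 in 3xTg and 1.35 in WT (log2 scale). Pcdha1 was uneven as well, with an SD of 0.374 in 3xTg and 0.853 in WT.

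Pcdhgb8, the gamma gene just after Pcdhga11, had 3 levels among the WT libraries and 1 among the 3xTg libraries. In the 16 3xTg libraries it ran from 7.96 to 12.7 CPM, with a median of 10.3. In WT it had 9.65, 8.95, 1.98 and 16.7 CPM with NAVI, 1.29, 2.21, 2.51 and 2.14 CPM with DQ and 1.93, 1.72, 17.2 and 19.1 CPM with vehicle. In all, 7 WT libraries lay below all 3xTg libraries, 2 lay within their range, and 3 lay above them. These 3 were Veh replicates 3 and 4 and NAVI replicate 4. The 7 low WT libraries held 59 to 97 counts of the gene each.

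The same 3 WT libraries stood apart for other members, most of them beta genes. They were the 3 highest of the 12 WT libraries for Pcdhb2, Pcdhb3, Pcdhb5, Pcdhb6, Pcdhb7 and Pcdhb8, which are neighbours in the array except for Pcdhb4 among them. Pcdhb6 had 11.6, 15.6 and 15.9 CPM in these 3 libraries and 4.82 to 8.74 CPM in the other 9, and Pcdhb7 had 22.8, 24.1 and 24.1 CPM against 11.4 to 17.5 CPM. They were the 3 lowest for Pcdhb9, with 16.6, 16.5 and 16.9 CPM against 19.3 to 32.9 CPM in the other 9, and for Pcdhga9. With Pcdhgb8, which belongs by the choice of libraries, this made 9 of 58 members (15.5%), against 0.733% of all genes tested. The libraries were picked for their Pcdhgb8 level after the values were seen, and no test was made. WT NAVI replicates 1 and 2, which were intermediate for Pcdhgb8, were also next in order for Pcdhb3, Pcdhb6, Pcdhb7 and Pcdhb9, but not for Pcdhb2, Pcdhb5, Pcdhb8 and Pcdhga9.

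**Figure D4:**
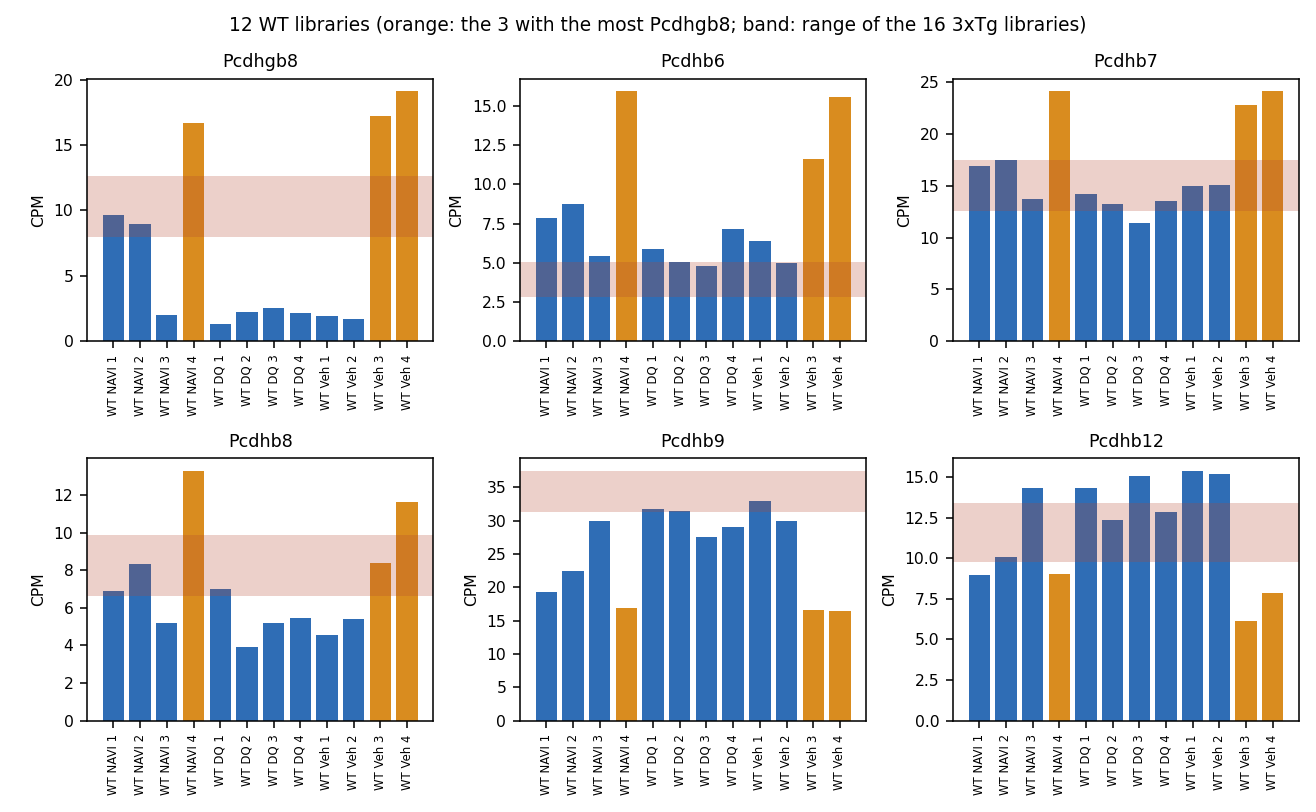
CPM of 6 members in each of the 12 WT libraries (bars; orange marks the 3 with the most Pcdhgb8, blue the other 9), with the range of the 16 3xTg libraries as a red band. The orange bars are highest for Pcdhb6, Pcdhb7 and Pcdhb8 and lowest for Pcdhb9, while for Pcdhb12 WT NAVI replicate 1 (8.99 CPM) lies below WT NAVI replicate 4 (9.07 CPM).

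Leaving out the 3 WT libraries with the most Pcdhgb8 changed the genotype comparison. Without the 3 libraries, the number of members called with vehicle was 11 in place of 17, beside 387 in place of 2142 over all genes. In the mean of the arms it was 24 in place of 22, beside 1698 in place of 2362 over all genes. Fewer libraries also weaken the test, so a lost call alone does not show a smaller difference. In the vehicle arm, where 2 of the 3 stand, the calls of Pcdhb9 (log2 0.09, edgeR adjusted p = 0.670), Pcdhb10 (0.23, 0.431), Pcdhga6 (0.18, 0.464), Pcdhga8 (0.33, 0.401) and Pcdhga9 (0.28, 0.220), which were rises, were lost without them. So were those of Pcdha9 (-0.60, 0.0532), Pcdhac2 (-0.21, 0.195), Pcdhgb7 (-0.31, 0.130) and Pcdhga12 (-0.47, 0.112), which were falls. With all libraries the rises were 0.48, 0.40, 0.33, 0.48 and 0.51 and the falls -0.70, -0.22, -0.27 and -0.42, in the same orders. In the mean of the arms, Pcdhb9 was at 0.30 without the 3 libraries and Pcdha8 and Pcdhga8 lost their calls (adjusted p = 0.0789 and 0.120). Pcdhgb8 itself missed the threshold in the mean of the arms (log2 0.85, SE 0.299, edgeR adjusted p = 0.0575). Without the 3 libraries its log2 difference was 1.81 (edgeR adjusted p = 1.34e-06). They were picked for their high Pcdhgb8, so a larger rise follows from that choice and this p-value is no evidence for it. Pcdhgb8 also passed as a rise with DESeq2 (adjusted p = 0.0424), limma-voom (log2 1.18, 0.0135), the replicate block (0.0336), GC trends removed (0.0414) and marker covariates (0.0451). Leaving out WT Veh replicate 3 or 4 or WT NAVI replicate 4, one at a time, gave a call as well (0.0210 to 0.0336). These are the same 3 libraries. In all, Pcdhgb8 passed as a rise in 9 of 39 alternatives and was not called in 30. In the DQ arm, where all 4 WT libraries were low, Pcdhgb8 was 4.88-fold higher in 3xTg (log2 2.29, SE 0.573, adjusted p = 0.0258). That call was lost without 3xTg DQ replicate 2, 3 or 4 or WT DQ replicate 1, 3 or 4 (adjusted p = 0.0552 to 0.0851), and in the vehicle arm the difference was 0.05 (adjusted p = 0.953).

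Neither drug gave a call among the members with edgeR. NAVI against VehN in 3xTg called 0 members, beside 0% of all genes. An unadjusted p under 0.05 was reached by 6 of 58 members and 4759 of 16369 genes. DESeq2 called 4 members there, beside 2000 of all genes, and limma-voom 1, beside 826 of all genes. The 6 were Pcdhgc5 (log2 0.32, SE 0.0770, edgeR adjusted p = 0.0595), Pcdhac2 (0.20, adjusted p = 0.0831), Pcdhga5 (0.26, 0.0941), Pcdhga2 (0.32, 0.0942), Pcdhga6 (0.29, 0.107) and Pcdhga3 (0.32, 0.152). Without VehN replicate 1, edgeR called 5 members, beside 3578 of all genes. With all libraries, the adjusted p of Pcdhgc5 equalled the smallest that any gene reached in the comparison of NAVI with VehN. The Benjamini-Hochberg method can give many genes the same adjusted p, so this does not rank Pcdhgc5 first. Pcdhgc5 passed without VehN replicate 1 or 4 or NAVI replicate 1 or 2 (edgeR adjusted p = 0.0144 to 0.0476).

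DQ against VehD in 3xTg called 0 members, beside 0% of all genes, with 2 members at an unadjusted p under 0.05. NAVI against Veh in WT called 0 members, beside 0% of all genes, with 2 at an unadjusted p under 0.05. DQ against Veh in WT called 0 members, beside 0.00611% of all genes, with 6 at an unadjusted p under 0.05. VehN against VehD in 3xTg called 0 members, beside 0% of all genes, with 1 at an unadjusted p under 0.05. Over all 16369 genes, 299, 1267, 554 and 807 had such an unadjusted p in these 4 comparisons, in that order. DESeq2 and limma-voom also called no member in these 4 comparisons. In WT with DQ, the difference of Pcdhgb8 (log2 -2.29, edgeR adjusted p = 0.890) was 0.15 without the 3 WT libraries that were high for it, 2 of which are in the Veh group. In 3xTg, Pcdhga11 had a log2 difference of -0.32 between DQ and VehD (edgeR adjusted p = 0.9999), which was -0.17 without VehD replicate 3, and of -0.37 between VehN and VehD (adjusted p = 0.804).

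The NAVI effect differed between the genotypes for 1 member, or 1.72%, against 8.13% of all genes. This was Pcdhgc5, a C-type gene whose protein is known to bind GABA-A receptors at synapses. It had 123, 129, 134 and 156 CPM in 3xTg NAVI libraries, against 111, 98.5, 97.4 and 126 CPM in VehN. It had 110, 108, 108 and 113 CPM in WT NAVI libraries, against 127, 120, 124 and 119 CPM in WT Veh. The WT NAVI libraries lay below all WT Veh libraries, while 3 of the 4 3xTg NAVI libraries lay above all VehN libraries. The difference of the effects was 0.48 (SE 0.109, edgeR adjusted p = 0.0427). It was lost without any of 9 single libraries, namely VehN replicate 2 or 3, 3xTg NAVI replicate 3 or 4, WT Veh replicate 1 or 4 and WT NAVI replicate 2, 3 or 4 (adjusted p = 0.0564 to 0.125). It was 0.25 after removal of GC trends (adjusted p = 0.203). The number of members called was 0 without any of those 9 libraries, 3 without VehN replicate 1 or 4 and 4 without 3xTg NAVI replicate 2 or WT Veh replicate 2. The count over all genes moved as well: it was 1331 with all libraries, 0 or 1 without any of those 9 and 4214 without VehN replicate 1. Choroid plexus marker scores were -2.16 to 1.61 in 3xTg NAVI and 1.15 to 2.34 in VehN, and oligodendrocyte marker scores 0.26 to 0.51 in 3xTg NAVI and -0.42 to 0.61 in VehN. In WT the choroid plexus scores were -1.58 to 1.67 with NAVI and -2.65 to 1.80 with Veh, and the oligodendrocyte scores -0.35 to 0.40 with NAVI and -0.31 to 0.05 with Veh. The part of these cells in the Pcdhgc5 values was not tested. The vehicle groups may differ in composition, which cannot be told apart from the NAVI effect here. The DQ effect differed between genotypes for 0 members, beside 0% of all genes, and neither DESeq2 nor limma-voom called a member. An unadjusted p under 0.05 was reached by 10 of 58 members and 467 of 16369 genes. WT Veh replicates 3 and 4, which were high for Pcdhgb8, enter this comparison. Their part in the count was not tested.

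**Figure D5:**
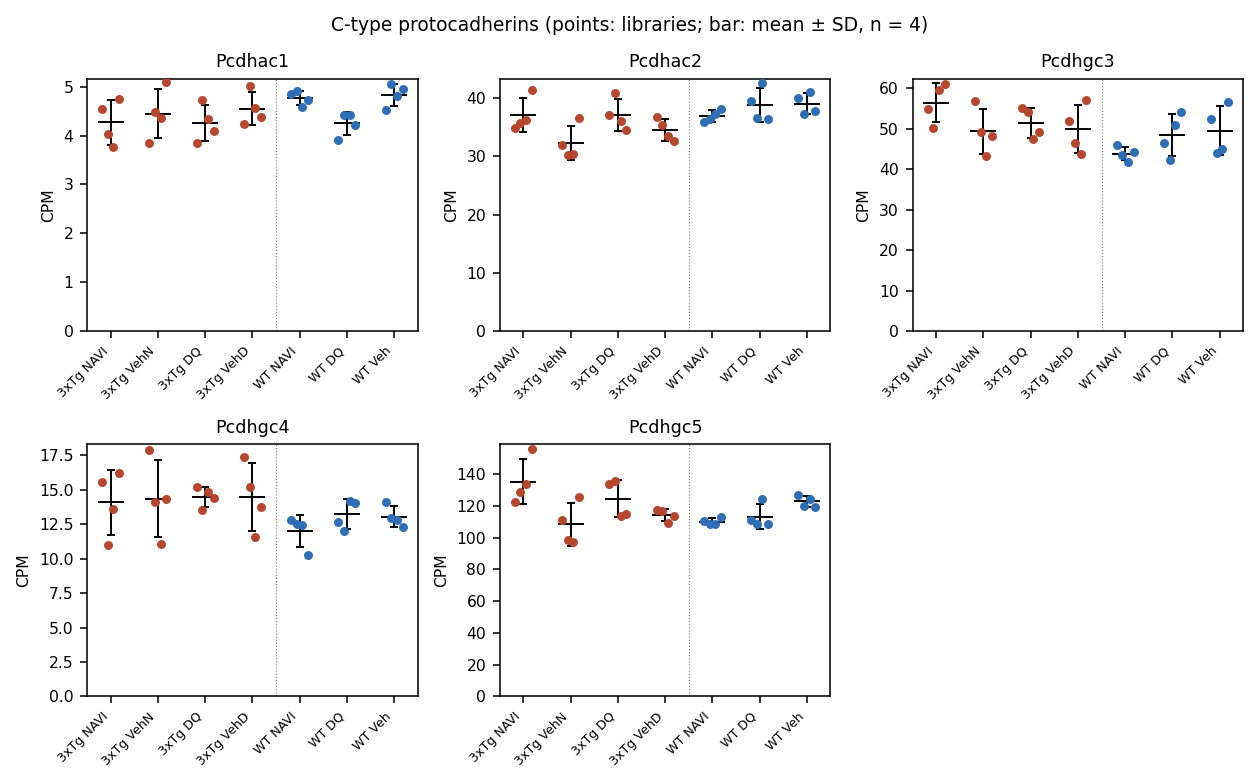
CPM of the 5 C-type genes by group; points are libraries (red 3xTg, blue WT), and bars are the mean ± SD of 4 libraries. Pcdhgc5 is at 123 to 156 CPM in 3xTg NAVI and 97.4 to 126 CPM in VehN, and at 108 to 113 CPM in WT NAVI and 119 to 127 CPM in WT Veh.

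Related genes outside the arrays were counted beside the 14.4% of all genes that passed between genotypes in the mean of the arms. Of 12 nonclustered protocadherins, 0 passed, with a median log2 difference of 0.02. Of 18 tested genes that control the array promoters, among them Ctcf, the cohesin subunits and DNA methyltransferases, 0 passed, with differences from -0.05 to 0.27 (edgeR). With vehicle alone Pcdh17, a nonclustered protocadherin, fell by 0.28 (edgeR adjusted p = 0.0382), and the cohesin subunit Stag2 and the cohesin loader Nipbl rose by 0.31 and 0.25 (adjusted p = 0.0175 and 0.0318). Of 21 signalling partners 3 rose and 4 fell, all by less than 0.2 on the log2 scale. The falls included the synaptic adhesion gene Nlgn2 (log2 -0.15, edgeR adjusted p = 0.00185). The rises included the actin regulator Rac1 (0.13, adjusted p = 0.00120). Of 21 tested neighbours on chromosome 18, Cd14 and Gnpda1 rose and Wdr55 and Tmco6 fell. Cd14, a microglial receptor, was the exception in size (log2 1.43, adjusted p = 4.63e-08), while the other 3 ran from -0.21 to 0.09.

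Some cell type markers passed between genotypes as well, beside 7.37% of all genes higher and 7.06% lower in 3xTg. Of 10 markers of neurons, the main source of clustered protocadherins in brain, 2 fell (Gad1 by 0.17 and Eno2 by 0.12) and none rose. Their score ran from -0.16 to 0.08 in 3xTg and from -0.06 to 0.14 in WT. Astrocyte markers rose in 6 of 10, led by Gfap at 1.36, with scores of 0.0024 to 0.26 in 3xTg and -0.22 to -0.12 in WT. Microglia markers rose in 4 of 8 and oligodendrocyte markers in 2 of 10, and neither had a fall. No choroid plexus or thalamus marker passed. Of 4 tested serotonin neuron markers Slc6a4 fell, at means of only 0.131 CPM in 3xTg and 0.246 CPM in WT, near the floor. The part of these cell types in the protocadherin differences was not tested. With the thalamus and choroid plexus scores as covariates, the number of members called in the mean of the arms was 23 in place of 22. Over all genes it was 2638 in place of 2362.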

How the data were processed

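The authors deposited counts for 24062 gene symbols, neither normalized nor pooled, with 1 column for each of 28 libraries; 0 columns were left unused. The submitters' processing notes name STAR, Subread, featureCounts and mm10. Their versions and roles, the annotation, the strand option and the handling of multi-gene reads were all not given in the sources used here.

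Counts were tested with edgeR 4.0.16 (R 4.3.3): TMM factors, the filterByExpr filter by group (keeping 16369 genes and removing 7693), a coefficient for each group, glmQLFit and glmQLFTest, two-sided, Benjamini-Hochberg over all genes tested in each of 11 comparisons, calls at an adjusted p under 0.05. The SE of a log2 fold change is its size over the square root of F, and 95% intervals are 1.96 SE on either side. CPM use TMM factors. Positions come from RefSeq (GRCm38.p6), lengths, GC content and shared windows from GENCODE transcripts. Pcdha4-g, outside the symbol rule, had 0 counts. A gene of the signalling list is not reported here. The fits were tested on simulated counts. No pair of libraries of the same group agreed within sampling noise (lowest chi-square per degree of freedom 12.3). Pairs from different groups were not compared in this way. Depth is high enough that most members have over 100 counts per library.

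The members and lists were chosen with earlier results of these data known. The genes named are up to 8 called rises and 8 called falls per comparison, or the 3 smallest p where fewer than 3 were called, plus Pcdhga11, the C-type genes, the highest and lowest member of each array and called interactions. All members called in the mean of the arms, the other genes called in each arm, the called C-type genes, and genes singled out for the WT spread or for an unadjusted p were added after the values were seen.

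Alternatives were RLE normalization, DESeq2 1.42.0, limma-voom (limma 3.58.1), no filter, a mean of at least 50 counts, only the libraries compared, a replicate block, GC trends removed, either 3xTg vehicle alone, leaving out each library and, added after seeing the data, marker covariates and leaving out 3 WT libraries.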

Additional observations from a re-analysis of the deposited data

Results flagged for a closer look

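In groups of 4 libraries, a value was marked where its gap to the nearest other library, as a share of the group's range, exceeded Dixon's 95% critical value. Chance alone marks about 1 in 20 groups, and 16 of 252 gene and group pairs were marked, over 36 genes.

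In 3xTg, Pcdhb2 was low at 12.1 CPM in NAVI replicate 3 and Pcdhgb7 high there at 8.84 CPM. Pcdhb7 was low at 12.6 CPM in NAVI replicate 1. Pcdhb11 was high at 12.3 CPM in VehN replicate 2, Pcdhga9 at 18.1 CPM in VehN replicate 1 and Pcdhga12 at 15.0 CPM in VehN replicate 4. Pcdha4 was high at 0.349 CPM in DQ replicate 3. Pcdhga11 was high at 8.42 CPM in VehD replicate 3, which is still below every WT library.

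In WT, Pcdhb1 was low at 0.698 CPM in NAVI replicate 1. Pcdhga5 was high at 13.2 CPM and Pcdhgc4 low at 10.3 CPM in NAVI replicate 4. Pcdhga7 was high at 22.6 CPM and Pcdhga8 at 17.3 CPM in Veh replicate 2, and Pcdhgb7 was low at 7.76 CPM in Veh replicate 4. In the DQ group, Pcdhga7 was high at 24.8 CPM in replicate 1 and Pcdhgc5 at 125 CPM in replicate 3.

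The effect of NAVI on Pcdhgc5 differed between 3xTg and WT by 0.48 on the log2 scale in the test of the difference itself (edgeR adjusted p = 0.0427). The cause was not tested.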

How the results depend on the processing

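The 22 calls in the mean of the arms ranged from 20 to 27 over 39 alternatives, beside 1698 to 3068 of all genes. Counts that moved by over 1.5 times were those with vehicle (17), at 11 with only the libraries compared, 9 with VehD alone and 11 without the 3 high-Pcdhgb8 WT libraries. Over all genes these fits called 1118, 623 and 387, in place of 2142. Leaving out 1 library gave 11 to 21 with vehicle, 8 to 17 with NAVI (18) and 8 to 12 with DQ (13). Over all genes it gave 873 to 3482, 375 to 1920 and 263 to 632 in the same order. NAVI in 3xTg (0) gave 4 with DESeq2, 1 with limma-voom, 1 with the replicate block, 2 with marker covariates and 0 to 5 without 1 library. The NAVI effect by genotype (1) gave 4 with DESeq2, 2 at a mean of 50 counts, 2 with the replicate block, 2 with marker covariates, 0 to 4 without 1 library, and 0 with no filter, only the libraries compared, GC trends removed or the 3 WT libraries left out. Over all genes, DESeq2 called 2000 for NAVI in 3xTg and 3004 for the NAVI effect by genotype. The replicate block called 2317 and 3315 of all genes in the same order, and marker covariates 1787 and 3318. The remaining 5 comparisons gave 0 under each alternative run. With the 3 WT libraries left out, the DQ difference in WT turned to 0.15 for Pcdhgb8 and 0.0037 for Pcdhb6. These causes were not tested. Over 89 values of named genes and 2311 alternatives, 177 lost a call, 33 gained one, 2 changed sign and 2099 did neither. C-type genes not called in an arm, or with NAVI in 3xTg, were at first included here and then left out, after their values near 0 were seen to change sign under several alternatives, so no direction is drawn for those.

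Between libraries with the same replicate number, correlations of deviations from the group mean ran from -0.56 to 0.64. Of 28 libraries, 8 correlated best with their own number. These values cannot exclude a batch shared by number. The replicate block gave 24 member calls in the mean of the arms, 21 with vehicle, 18 with NAVI and 13 with DQ. Over all genes it gave 2661, 3283, 1884 and 611 in the same order, in place of 2362, 2142, 979 and 500. Using only the libraries compared is the main fit itself for the mean of the arms. Depth limits Pcdha4 and Pcdha8, with 2 to 14 and 11 to 59 counts per library, and shared exons limit alpha and gamma levels.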
